A study of Mus musculus with 6 samples.

Results

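The 9 genes described here encode phosphatases that act against phosphoinositide 3-kinase (PI3K) or its effector AKT. They were chosen by name, with earlier results of these data known: Inpp4a, Inpp4b, Inpp5d, Inppl1, Inpp5e, Inpp5k, Synj1, Phlpp1 and Phlpp2. All 9 were among the 15139 rows of the deposited table, 1 row each, and all 9 passed the filter on low values that left 11365 genes for testing. Messenger RNA was sequenced from primary mouse bone marrow cells grown in RPMI with 10% fetal bovine serum and taken at week 1 of culture; the growth factors were IL3 at 10 ng/ml and SCF at 50 ng/ml, the cytokines interleukin 3 and stem cell factor. The knockout group carried MxCre+v: Dnmt3a-/- and is called KO below. The wild-type group carried MxCre+v: Dnmt3a+/+ and is called WT, so both genotypes carried the Cre transgene, whose Mx promoter responds to interferon and is active in more tissues than blood. KO replicates 2 and 3 gave 1 library each, KO replicate 1 was not analysed here, and WT had 3 libraries. The sources used here do not give the age of the mice or the treatment that set off Cre, and 1 label field calls the KO cells a knockdown. The title of the series names the PI3K pathway, and the comparison asks how the transcripts of its opposing phosphatases differ when Dnmt3a, a de novo DNA methyltransferase, has been deleted.

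PI3K adds a phosphate to the 3 position of a membrane inositol lipid, and the product draws AKT and other proteins to the membrane. The enzymes encoded by Inpp5d (SHIP1) and Inppl1 (SHIP2) take the 5-phosphate off that product, and those encoded by Inpp4a and Inpp4b take the 4-phosphate off the lipid that SHIP leaves. Inpp5e, Inpp5k and Synj1 encode other 5-phosphatases. Phlpp1 and Phlpp2 encode protein phosphatases that act on AKT itself and not on a lipid, so the name phosphoinositide phosphatase does not hold for this pair. SHIP1 is found mainly in blood cells, and in mast cells, which IL3 and SCF support in culture, it is known to hold back degranulation.

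Levels are given as FPKM, fragments scaled to gene length and to the mapped fragments of the library, which can be set side by side between genes. Fold changes are on the scale of log2(FPKM + 1), KO over WT, a scale that understates the change of low genes. A gene was called changed at an adjusted p under 0.05 in limma, with Benjamini-Hochberg adjustment over all 11365 tested genes. Dnmt3a itself stood at 2.58 and 3.42 FPKM in the KO libraries, against 6.68, 9.99 and 9.04 FPKM in WT replicates 1, 2 and 3, and fell by 1.25 on the log2 scale (SE 0.17; limma adjusted p = 0.00279). The sexes were not balanced: both KO libraries and WT replicate 1 held at most 0.02 FPKM of Xist, the RNA of the inactive X, while WT replicates 2 and 3 held 14.4 and 15.3 FPKM. The labels do not say whether libraries of a group came from separate animals, so p-values measure the spread between these libraries, which may be in part technical. Across libraries, 11038 to 11090 genes reached 1 FPKM.

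Of the 9 genes, Inpp4b, Inpp5k and Inpp5d rose in KO cells, Inpp4a fell, and the other 5 did not pass the test. The 4 called genes are 44.4% of the 9, beside 22.1% of all 11365 tested genes, of which 1032 were higher and 1475 lower. Because the 9 genes were chosen with earlier results of these data known, the first share cannot be read as an excess over the second. Under upper-quartile scaling 1256 of 2394 called genes were higher, and the number called over all genes was 1312 with sex as a covariate and 1623 without WT replicate 2. Both KO libraries lay outside the WT range for 7 of the 9 genes, above it for 4 and below it for 3, beside 51.1% of all tested genes (20.4% above and 30.8% below). The median log2 change of the 9 genes was 0.19, and that of all tested genes was -0.04.

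**Figure D1:**
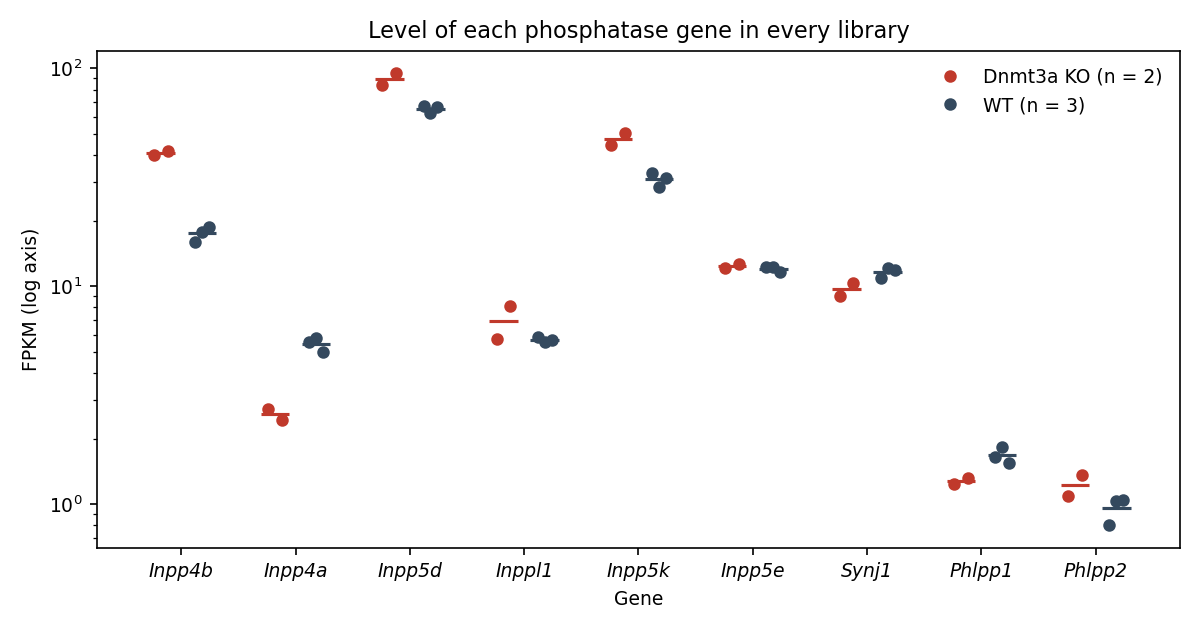
FPKM of each phosphatase gene in every library on a log axis. Each point is 1 library, red for the 2 Dnmt3a KO libraries and dark for the 3 WT libraries, and lines are group means; Inpp4b, Inpp5d and Inpp5k lie higher in both KO libraries, Inpp4a lies lower, and the groups overlap for Inppl1 and Inpp5e.

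Markers of several cell types that such cultures can hold differed between the genotypes as well. The share of tested markers called was 73.3% for mast cells, 85.7% for monocytes and macrophages and 78.6% for neutrophils. It was 100% for the dendritic cell and MHC class II list, 62.5% for basophils and 12.5% for eosinophils, beside 22.1% of all tested genes. Of 15 mast cell markers, 11 rose and none fell, and their summed level was 28629 to 32788 FPKM in KO libraries and 12179 to 13966 FPKM in WT libraries. Of 14 monocyte and macrophage markers, 12 fell, with sums of 2759 to 2939 FPKM in KO libraries and 6427 to 8346 FPKM in WT libraries. Of 14 neutrophil markers, 11 fell, with sums of 13047 to 16897 FPKM in KO libraries and 22683 to 33458 FPKM in WT libraries. All 6 tested genes of the dendritic cell and MHC class II list fell, with sums over its 9 genes of 155 to 311 FPKM in KO libraries and 1590 to 2170 FPKM in WT libraries. The tested genes were H2-Aa, H2-Ab1, H2-Eb1, Cd74, Ciita and Itgax, so the share called mostly describes MHC class II. Flt3, Cd209a and Zbtb46 of this list were too low to be tested, at 0.57 FPKM or less. No mast cell, monocyte or neutrophil marker was at 0 in any library, whereas Cd209a and Zbtb46 of the dendritic cell list were listed at 0 in at least 1 library. Of 8 basophil markers 3 rose and 2 fell, while their sum overlapped between genotypes, at 6131 to 6490 FPKM in KO libraries and 5250 to 6694 FPKM in WT libraries. Of 8 eosinophil markers 1 rose and none fell, and their sum also overlapped, at 8000 to 10785 FPKM in KO libraries and 5981 to 9031 FPKM in WT libraries. In bulk RNA, more or fewer cells of a type and more or less RNA per cell cannot be told apart, and the part of these shifts in the phosphatase results was not tested.

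The 4-phosphatase genes moved in opposite directions. Inpp4b (gene 234515), at 81342266 to 82134312 of chromosome 8 in GRCm38.p6, the build also called mm10, had 39.9 and 41.6 FPKM in KO replicates 2 and 3, against 15.95, 17.8 and 18.7 FPKM in WT replicates 1, 2 and 3. Both KO values lay far above the highest WT value. The mean was 40.8 ± 1.21 FPKM in KO cells (SD, n = 2) and 17.5 ± 1.42 FPKM in WT cells (SD, n = 3), and the log2 change was 1.18 ± 0.09 (SE; limma adjusted p = 0.000350), larger in size than that of 96.8% of tested genes. Inpp4a (gene 269180), on chromosome 1 from 37299827 to 37410740, had 2.72 and 2.44 FPKM in KO replicates 2 and 3, against 5.54, 5.81 and 4.98 FPKM in WT replicates 1, 2 and 3. Neither KO library reached the lowest WT value. The mean fell to 2.58 ± 0.198 FPKM in KO cells (SD, n = 2), against 5.44 ± 0.423 FPKM in WT cells (SD, n = 3), and the log2 change was -0.85 ± 0.11 (SE; limma adjusted p = 0.00211).

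The balance within this pair shifted towards Inpp4b. Inpp4b made up 93.6% and 94.5% of the summed Inpp4 level in KO replicates 2 and 3, and 74.2%, 75.4% and 79.0% in WT replicates 1, 2 and 3. Its FPKM was 14.7 and 17.1 times that of Inpp4a in the KO libraries, and 2.88, 3.07 and 3.76 times in the WT libraries. The sum of both genes was 43.4 ± 1.01 FPKM in KO cells (SD, n = 2) and 22.9 ± 1.26 FPKM in WT cells (SD, n = 3), so the summed level of transcripts for these enzymes was higher in KO cells while that of 1 of the 2 genes was lower. The difference between the genes in log2(FPKM + 1) averaged 3.55 in KO and 1.52 in WT cells. An exact two-sided permutation test of that difference gave p = 0.2, the smallest that 2 against 3 libraries can give, so a single value cannot pass a threshold of 0.05 by this test.

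Because Dnmt3a methylates cytosine in CpG pairs, the promoter windows of the 4 genes that changed are shown with each CpG in capitals and all other bases in lower case. They are RefSeq sequences of GRCm38.p6, read 5′ to 3′ on the gene's own strand, from 250 bases before a transcript start to 50 after it. All 4 genes lie on the forward strand. The windows are chr8:81342312-81342611 for Inpp4b, chr1:37299588-37299887 for the first of 3 Inpp4a windows, chr1:87620062-87620361 for Inpp5d and chr11:75630770-75631069 for Inpp5k. The intervals of Inpp4b and Inpp5k begin at 81342266 and 75629067, before these windows. The windows of these genes thus do not cover the annotated 5′ end.
Inpp4b: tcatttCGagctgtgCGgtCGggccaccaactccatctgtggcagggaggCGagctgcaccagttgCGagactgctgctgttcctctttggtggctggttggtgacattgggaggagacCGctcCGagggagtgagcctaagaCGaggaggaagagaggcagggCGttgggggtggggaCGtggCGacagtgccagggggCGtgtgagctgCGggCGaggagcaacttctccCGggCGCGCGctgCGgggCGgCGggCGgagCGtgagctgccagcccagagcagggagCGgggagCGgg
Inpp4a: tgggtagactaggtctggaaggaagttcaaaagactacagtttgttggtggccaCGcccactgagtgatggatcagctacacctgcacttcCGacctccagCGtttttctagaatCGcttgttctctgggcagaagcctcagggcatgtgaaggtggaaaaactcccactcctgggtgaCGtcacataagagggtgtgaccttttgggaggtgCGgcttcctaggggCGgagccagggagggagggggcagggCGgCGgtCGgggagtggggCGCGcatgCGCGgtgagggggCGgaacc
Inpp5d: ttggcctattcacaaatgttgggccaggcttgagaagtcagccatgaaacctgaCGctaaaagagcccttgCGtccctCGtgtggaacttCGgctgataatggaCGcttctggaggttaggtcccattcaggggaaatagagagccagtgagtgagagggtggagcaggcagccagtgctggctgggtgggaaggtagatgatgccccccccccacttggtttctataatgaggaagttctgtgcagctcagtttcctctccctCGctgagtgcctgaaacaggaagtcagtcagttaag
Inpp5k: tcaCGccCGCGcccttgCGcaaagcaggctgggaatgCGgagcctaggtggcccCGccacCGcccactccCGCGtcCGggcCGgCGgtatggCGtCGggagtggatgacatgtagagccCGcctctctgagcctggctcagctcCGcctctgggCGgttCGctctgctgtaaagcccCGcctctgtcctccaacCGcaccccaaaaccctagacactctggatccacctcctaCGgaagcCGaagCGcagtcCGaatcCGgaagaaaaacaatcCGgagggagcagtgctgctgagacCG
The Inpp4b window holds 25 CpG pairs and the Inpp4a window 15, while the other Inpp4a windows hold 21 and 7. The Inpp5k window holds 27 and the Inpp5d window 6, and the median over all 32851 RefSeq windows of this length was 7. The 3 genes that rose thus include the member with the fewest CpG pairs and ones well above that median. DNA methylation was not measured in the files analysed here, so these counts describe the sequences and nothing about their methylation.

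Of the SHIP genes, Inpp5d rose and Inppl1 did not pass the test. Inpp5d (gene 16331), on chromosome 1 from 87620312 to 87720510, had the highest level of the 9 genes in every library. It had 83.5 and 94.96 FPKM in KO replicates 2 and 3, against 67.3, 62.55 and 66.3 FPKM in WT replicates 1, 2 and 3. Both KO libraries were above all WT libraries. Its mean of 89.25 ± 8.08 FPKM in KO cells (SD, n = 2) and 65.4 ± 2.49 FPKM in WT cells (SD, n = 3) differed by 0.44 ± 0.08 in log2 (SE; limma adjusted p = 0.00923). This call was lost with sex as a covariate, a fit that sets the KO libraries against WT replicate 1 (log2 change 0.40, limma adjusted p = 0.0891). Its promoter window is the only one of 14 member windows that holds the exact octamer GAGGAAGT, searched on both strands and found in 3.20% of all windows. The octamer has the GGAA core bound by ETS factors, and other strings with that core were not searched. The core also occurs in the windows shown for Inpp4b, Inpp4a and Inpp5k, in that of Inpp4a as AAGGAAGT.

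Inppl1 (gene 16332), on chromosome 7 from 101822632 to 101838226, encodes the SHIP of most other tissues and was far lower than Inpp5d. Its level was 5.75 and 8.11 FPKM in KO replicates 2 and 3, against 5.82, 5.56 and 5.68 FPKM in WT replicates 1, 2 and 3. The KO libraries differed from each other more than the WT libraries did, and KO replicate 2 lay within the WT range. The log2 change was 0.23 with a 95% interval of -0.09 to 0.55 (limma adjusted p = 0.279), and without KO replicate 2 the gene was called higher (0.45, limma adjusted p = 0.0327). On the opposite strand the antisense gene Gm10602 covers 18.8% of its exonic bases and Phox2a 1.48%, and reads there may not have been told apart, since the sources used here do not give the strand setting. Inpp5d made up 93.56% and 92.13% of the summed SHIP level in KO replicates 2 and 3, and 92.04%, 91.84% and 92.11% in WT replicates 1, 2 and 3. Both KO shares were above all WT shares, KO replicate 3 only narrowly, and the difference between the genes in log2(FPKM + 1) averaged 3.52 in KO and 3.31 in WT cells (exact two-sided permutation p = 0.2).

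**Figure D2:**
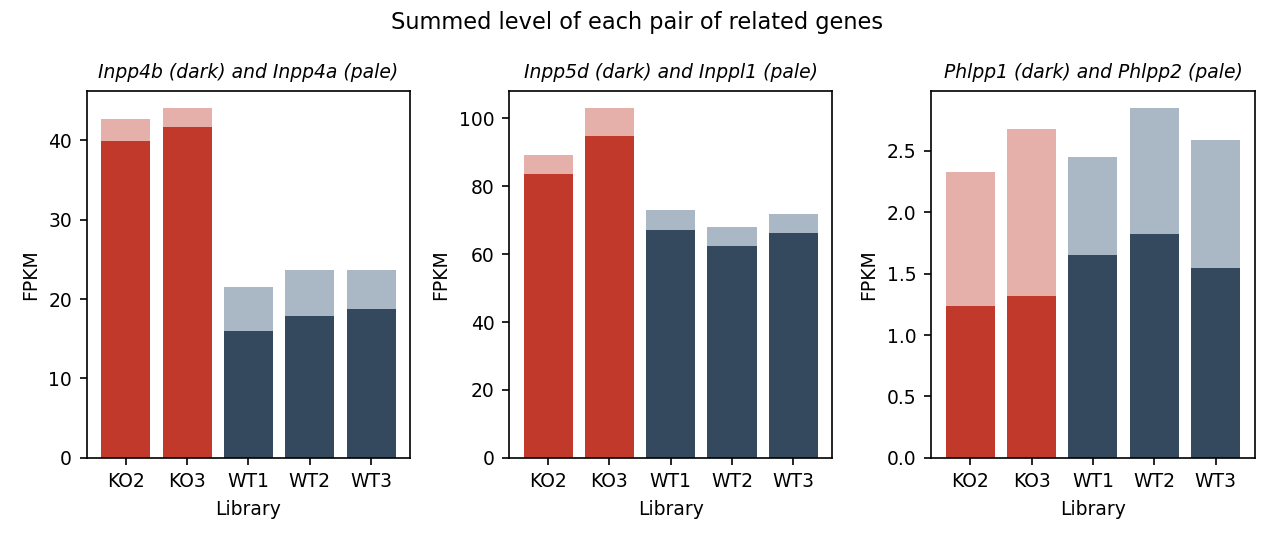
Summed FPKM of each pair of related genes in every library, KO in red and WT in dark blue, with a separate linear axis from 0 for each pair. Inpp4b takes 93.6% and 94.5% of its pair in KO libraries and 74.2% to 79.0% in WT libraries, while the SHIP pair keeps a share of Inpp5d between 91.8% and 93.6% and the Phlpp pair stays under 3 FPKM.

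Of the remaining 5-phosphatase genes, Inpp5k rose, and Inpp5e and Synj1 did not pass the test. Inpp5k (gene 19062), on chromosome 11 from 75629067 to 75648865, encodes an enzyme also called SKIP, known to dampen insulin signalling. It had 44.7 and 50.4 FPKM in KO replicates 2 and 3, against 33.1, 28.4 and 31.3 FPKM in WT replicates 1, 2 and 3. The KO libraries were both above all WT libraries. The mean of 47.5 ± 4.01 FPKM in KO cells (SD, n = 2) and 31.0 ± 2.37 FPKM in WT cells (SD, n = 3) differed by 0.60 ± 0.09 in log2 (SE; limma adjusted p = 0.00443). With sex as a covariate its adjusted p was 0.04995, close to the threshold, with a log2 change of 0.51 (limma).

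Inpp5e (gene 64436), on chromosome 2 from 26396249 to 26409244, encodes the 5-phosphatase of the primary cilium. It had 12.1 and 12.7 FPKM in KO replicates 2 and 3, against 12.3, 12.2 and 11.7 FPKM in WT replicates 1, 2 and 3, and the groups overlapped. Its log2 change was 0.04 with a 95% interval of -0.15 to 0.22 (limma adjusted p = 0.793), the narrowest interval of the 9 genes. The gene Pmpca on the opposite strand covers 20.3% of the exonic bases of Inpp5e, with 31.4 ± 0.863 FPKM in KO cells (SD, n = 2) and 33.98 ± 1.08 FPKM in WT cells (SD, n = 3). Synj1 (gene 104015), on chromosome 16 from 90936092 to 91013727, encodes synaptojanin, which helps to uncoat endocytic vesicles. It had 9.06 and 10.4 FPKM in KO replicates 2 and 3, against 10.95, 12.2 and 11.9 FPKM in WT replicates 1, 2 and 3. Both KO libraries were below all WT libraries, but the log2 change of -0.24, with a 95% interval of -0.46 to -0.02, did not pass after adjustment (limma adjusted p = 0.119). A transcript on the opposite strand, 4930404I05Rik, covers 0.742% of its exonic bases.

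The Phlpp genes were the lowest of the 9 and neither passed the test. Phlpp1 (gene 98432), on chromosome 1 from 106171869 to 106394245, had 1.24 and 1.32 FPKM in KO replicates 2 and 3, against 1.65, 1.82 and 1.55 FPKM in WT replicates 1, 2 and 3. Its KO libraries were below all WT libraries, with a log2 change of -0.23 and a 95% interval of -0.53 to 0.07 (limma adjusted p = 0.256). Phlpp2 (gene 244650), on chromosome 8 from 109868517 to 109944671, had 1.09 and 1.36 FPKM in KO replicates 2 and 3, against 0.80, 1.03 and 1.04 FPKM in WT replicates 1, 2 and 3. Its KO libraries were above all WT libraries only narrowly, with a log2 change of 0.19 and a 95% interval of -0.16 to 0.53 (limma adjusted p = 0.423). Phlpp1 made up 53.2% and 49.3% of the pair in KO replicates 2 and 3, and 67.3%, 63.9% and 59.8% in WT replicates 1, 2 and 3, without overlap. The difference between the genes in log2(FPKM + 1) averaged 0.04 in KO and 0.45 in WT cells (exact two-sided permutation p = 0.2), and their sum was 2.51 ± 0.247 FPKM in KO cells (SD, n = 2) and 2.63 ± 0.203 FPKM in WT cells (SD, n = 3).

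**Figure D3:**
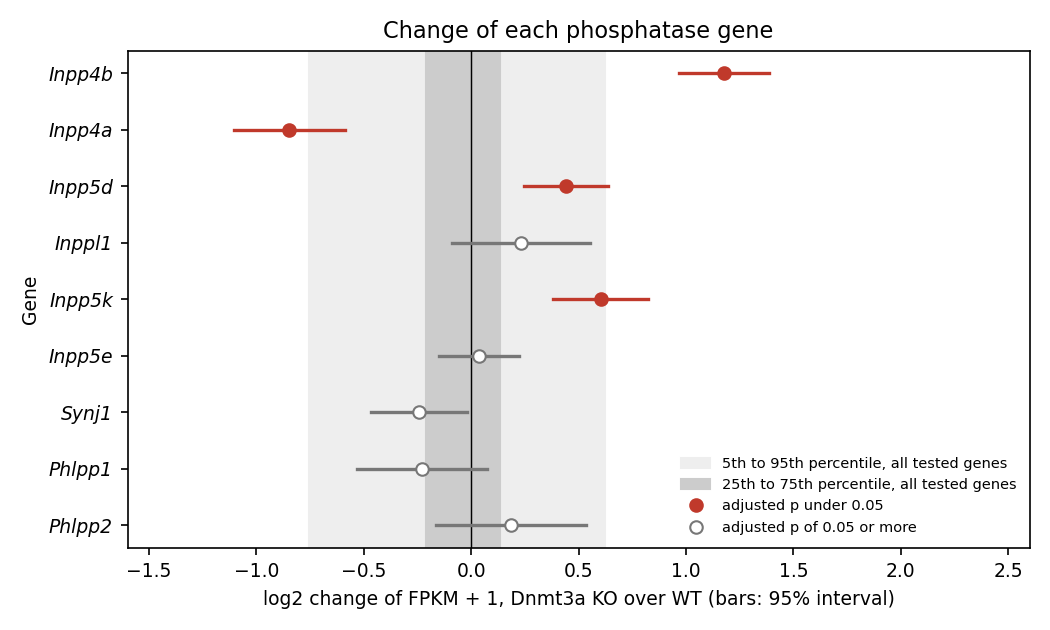
log2 change of FPKM + 1, KO over WT, for each phosphatase gene, with 95% intervals from limma, over grey bands that hold the central 50% and 90% of all tested genes. Filled points passed at an adjusted p under 0.05; Inpp4b at 1.18 and Inpp4a at -0.85 lie outside the wider band, which runs from -0.76 to 0.62, and Inpp5d, Inpp5k and the 5 genes that did not pass lie within it.

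Inpp5d, Inpp5k and Inpp4b, in that order, held the 3 highest levels of FPKM in both genotypes, and the ranges of these genes did not overlap within either. In KO cells Inpp5e, Synj1, Inppl1 and Inpp4a followed in that order without overlap, and Phlpp1 and Phlpp2 overlapped. In WT cells Inpp5e overlapped with Synj1 and Inppl1 with Inpp4a, with means of 5.69 FPKM and 5.44 FPKM for the second pair, against 6.93 FPKM and 2.58 FPKM in KO cells. The summed level of the 9 genes was 200.1 and 223 FPKM in KO replicates 2 and 3, against 153, 147 and 153 FPKM in WT replicates 1, 2 and 3, a ratio of means of 1.40. Inpp5d held a similar share of that sum in both genotypes, 41.8% and 42.5% in KO replicates 2 and 3 and 43.9%, 42.4% and 43.3% in WT replicates 1, 2 and 3. The share of Inpp4b was 19.95% and 18.6% in the KO libraries, against 10.4%, 12.1% and 12.2% in the WT libraries, and no other gene of the 9 differed by as many percentage points between the group means. All 5 of the 5-phosphatase genes together held 77.5% and 79.1% of the sum in the KO libraries, against 84.4%, 82.0% and 82.8% in the WT libraries.

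The other genes of the pathway were counted in 5 lists, each read beside the 22.1% of all tested genes that were called. These lists too were chosen with earlier results of these data known, so a higher share cannot be read as an excess. Of all tested genes, 1032 were higher and 1475 lower. Of 23 tested genes of other phosphoinositide phosphatases, none rose and 4 fell (17.4% called, median log2 change -0.04). Mtm1, a myotubularin that removes the 3-phosphate from endosomal lipids, fell by 0.77 on the log2 scale (SE 0.10; limma adjusted p = 0.00199). Inpp1, which acts on soluble inositol phosphates, fell by 0.41, Inpp5f by 0.39 and Tmem55b by 0.38 on the log2 scale, with limma adjusted p values of 0.0335, 0.0350 and 0.0316. These 3 calls were each lost with sex as a covariate (0.168, 0.226 and 0.168), those of Inpp1 and Inpp5f also whichever library was left out, and that of Tmem55b without KO replicate 3, WT replicate 1 or WT replicate 3. The list had 1 called gene without WT replicate 1 or WT replicate 3 and 2 without KO replicate 3 or WT replicate 2, and 1 with sex as a covariate. Inpp5b (0.28, limma adjusted p = 0.0820) and Mtmr3 (-0.18, 0.182) did not pass. Inpp5b was called higher under median-of-ratios scaling (limma adjusted p = 0.0455), upper-quartile scaling (0.0376) and quantile scaling (0.0426) and without KO replicate 2 (0.0337), so that the absence of a gene that rose depends on the scaling. Mtmr3 was called lower without KO replicate 3 (limma adjusted p = 0.0454).

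Among 23 tested kinases and kinase subunits that make phosphoinositides, 2 rose and 6 fell (34.8% called, median log2 change 0.02). Pik3r5 and Pik3r6, regulatory subunits of PI3K gamma, fell by 1.05 and 0.60 on the log2 scale and the adaptor gene Pik3ap1 by 0.97 (limma adjusted p = 0.000426, 0.0106 and 0.000909). The PI3K catalytic subunit genes Pik3cd, Pik3cb, Pik3cg and Pik3ca were named after their values were seen. Pik3cd, at 135.3 FPKM in KO and 97.2 FPKM in WT cells on average, rose by 0.47 on the log2 scale. Pik3cb fell by 0.47 (limma adjusted p = 0.00674 for each), and Pik3cg (0.26, 0.0544) and Pik3ca (0.22, 0.164) did not pass. Pip5k1b, which makes the lipid that PI3K acts on, had 19.0 ± 1.61 FPKM in KO cells (SD, n = 2) and 12.1 ± 0.517 FPKM in WT cells (SD, n = 3) and rose by a log2 change of 0.62 (limma adjusted p = 0.00321). Pip4k2a (0.16, limma adjusted p = 0.147) and Pip5k1c (0.02, 0.927) did not pass, though Pip4k2a was called higher under quantile scaling (0.0484). Of 21 genes listed as adaptors and inhibitory receptors that may bring SHIP enzymes to the membrane, 1 rose and 7 fell (38.1% called, median log2 change -0.16). Whether the product of each listed gene binds a SHIP enzyme in these cells was not tested. The lectin receptor Clec4a2 fell by 1.21, the adaptor Dok2 by 0.82 and the adaptor Gab1 by 0.80 on the log2 scale, and Pecam1 rose by 0.59, with limma adjusted p values of 0.00246, 0.000583, 0.0105 and 0.00360. Gab1 was low, at 0.405 ± 0.120 FPKM in KO cells (SD, n = 2) and 1.45 ± 0.205 FPKM in WT cells (SD, n = 3), and its call was lost without KO replicate 3 (limma adjusted p = 0.0602). Grb2, an adaptor of many receptors (-0.05, 0.666), and Cd300lf (-0.16, 0.206) did not pass, and Grb2 had a positive sign under 3 other scalings (upper-quartile, quantile and median-of-ratios).

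Of 27 proteins that bind the lipids made by PI3K, 3 rose and 8 fell (40.7% called, median log2 change -0.06). Plcg1, a phospholipase C of receptor signalling, had 36.4 and 41.8 FPKM in KO replicates 2 and 3, against 16.9, 15.3 and 17.9 FPKM in WT replicates 1, 2 and 3, and rose by 1.18 on the log2 scale (SE 0.10; limma adjusted p = 0.000446). The exchange factor genes Vav3 and Vav2 fell by 1.01 and 1.00 and the kinase gene Sgk3 by 0.98 on the log2 scale, with limma adjusted p values of 0.000850, 0.00239 and 0.000824. Plek (0.02, limma adjusted p = 0.900) and Akt1 (-0.14, 0.264) did not pass. Of 24 substrates and targets of AKT and of the FOXO factors it restrains, 6 rose and 3 fell (37.5% called, median log2 change 0.01). The transcription factor gene Klf2 rose by 1.31 ± 0.21 (SE), the insulin receptor substrate gene Irs2 by 1.11 ± 0.23 and the cell cycle inhibitor gene Cdkn1a by 0.80 ± 0.09, and Bcl2l11, which encodes the death protein BIM, fell by 0.74 ± 0.09 on the log2 scale (limma adjusted p values 0.00515, 0.0141, 0.00104 and 0.00134). Klf2 and Cdkn1a also respond to stress and other signals. The call of Irs2 was lost with sex as a covariate (limma adjusted p = 0.0952), and its log2 change was 0.67 without KO replicate 3. The list had 9 called genes as reported, 6 without KO replicate 3 or WT replicate 1, 4 without WT replicate 2, 5 without WT replicate 3 and 3 with sex as a covariate. Txnip (-0.17, 0.278) and Gsk3a (-0.05, 0.646) did not pass, and the sign of Gsk3a turned positive under upper-quartile and quantile scaling. Txnip was called lower without KO replicate 3 (limma adjusted p = 0.0413).

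**Figure D4:**
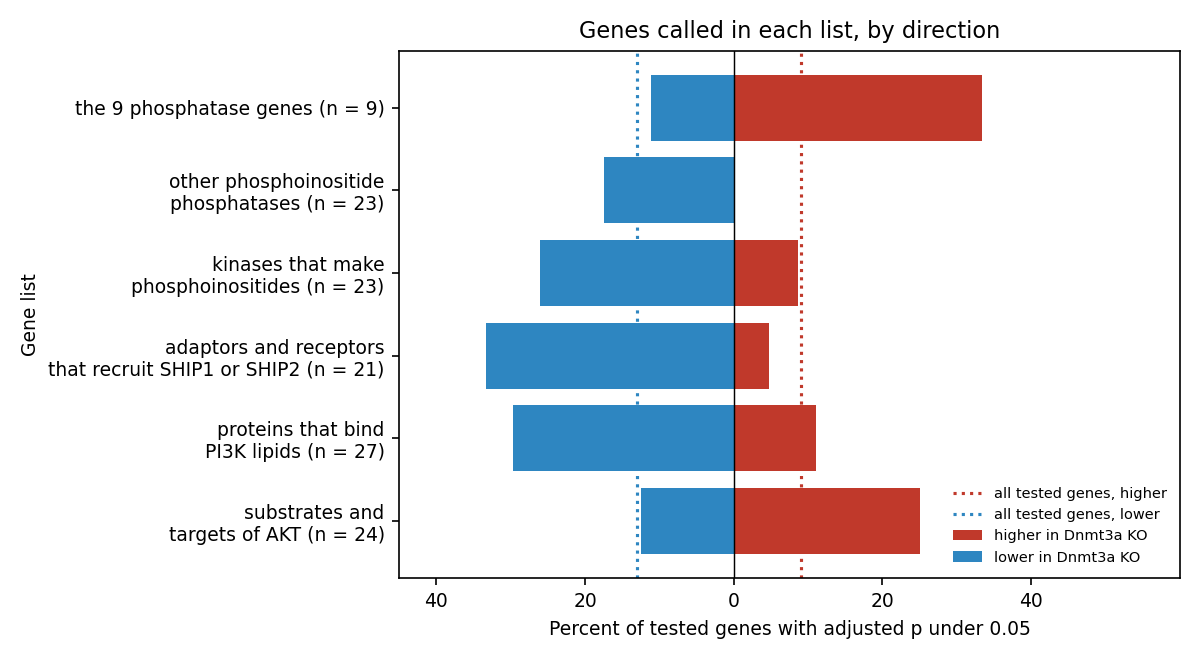
Percent of tested genes of each list that were called at an adjusted p under 0.05, higher in KO cells to the right and lower to the left, with dotted lines at the shares of all tested genes that were called in each direction (1032 higher and 1475 lower of 11365). Of the 9 phosphatase genes 3 lie to the right and 1 to the left. SHIP binding was not tested for the list of adaptors and receptors, which has 1 of 21 to the right and 7 to the left.

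The genes closest in pattern to each called member were found over the 5 libraries by the Euclidean distance between mean-centred log2(FPKM + 1) values among all tested genes. For Inpp4b these were Rcn3, Nynrin and Dusp4, at distances of 0.0950, 0.113 and 0.122. For Inpp4a they were Anxa3 (0.0467), an unnamed gene model and Dscr3 (0.0518). For Inpp5d they were Setd7, P2rx4 and Mad2l2 (0.0208 to 0.0520), and for Inpp5k Gab3, Rgag4 and Arl5a (0.0175 to 0.0830). Each distance covers only 5 points, and the difference between genotypes is part of the pattern.

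The authors' deposited table holds 2 tests of its own, which give the members another standing. By the adjusted p-value of the second test in the authors' deposited table, Inpp4b passed at 3.08e-06, and Inpp4a (0.0837), Inpp5k (0.213) and Inpp5d (0.817) did not. That test called 922 of the 15139 rows in the authors' deposited table at an adjusted p under 0.05, and 893 of these were among the 2507 called here. By the unadjusted p-value of the first test in the authors' deposited table, Inpp4b had 0.000324, Inpp4a 0.00329, Inpp5k 0.00921, Inpp5d 0.0142 and Phlpp1 0.0340. The signed folds of the authors' deposited table were 2.33 for Inpp4b, -2.11 for Inpp4a, 1.53 for Inpp5k and 1.37 for Inpp5d, where a negative fold means lower in KO cells. The sources used here do not name the input of the second test, so the difference between the tests was not traced.

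**Figure D5:**
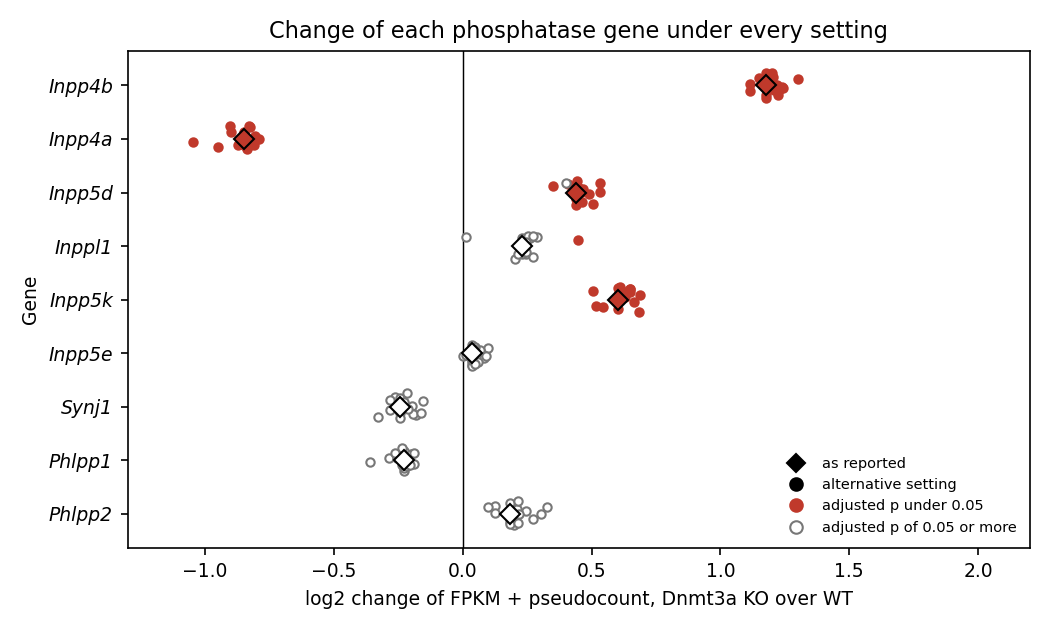
log2 change of FPKM plus the pseudocount, KO over WT, for each phosphatase gene as reported (diamond) and under each alternative setting (circles, spread vertically for sight), filled red where the adjusted p was under 0.05. Inpp4b stays between 1.12 and 1.30 and Inpp4a between -1.05 and -0.79 with every circle filled, Inpp5d has 1 open circle at 0.40, and Inppl1 has 1 filled circle at 0.45.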

How the data were processed

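RNA was sequenced from bone marrow cultures of 2 genotypes, per the labels' protocols from mRNA selected with oligo(dT). Per the submitters' processing notes, the tools were HISAT, StringTie 1.2.1 and edgeR and the build mm10, with no role or order stated. The sources used here do not give settings, annotation or strand use. Per the file headers, the authors deposited FPKM for each gene and library, and also their own p-values and signed fold and log fold scores. FPKM carry no read totals, so depth and counting error are unknown.

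limma 3.58.1 in R 4.3.3 was fitted on log2(FPKM + 1) over all libraries, with a mean-variance trend, no term other than genotype, and 3 degrees of freedom left. Genes with at least 1 FPKM in 2 libraries were tested, and p-values were Benjamini-Hochberg adjusted over all of them at a threshold of 0.05. The procedure was tested on simulated data. Names and positions came from RefSeq GRCm38.p6, exon overlaps from GENCODE, and 23 symbols turned into dates were sought by gene number. The members and lists were chosen with earlier results of these data known. Named were all members; per pathway list, the 4 called genes with the largest change and the 2 most abundant uncalled ones; the 3 genes nearest in pattern to each called member; and, of each marker list, the 2 most abundant genes. Genes marked as named after their values were seen lie outside these rules. Libraries of 1 genotype differed by a median absolute log2 value of 0.0937 to 0.158, so no pair was near-identical. Alternatives were other pseudocounts, filters, scalings, variance settings, sex as a covariate, a replicate block and each library left out.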

Additional observations from a re-analysis of the deposited data

How the results depend on the processing

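Across the 17 alternatives, Inpp4b, Inpp4a and Inpp5k kept direction and call, with log2 changes of 1.12 to 1.30, -1.05 to -0.79 and 0.51 to 0.69. The alternatives are not independent checks. Other filters and variance settings leave each log2 change as it was, so only the call could differ. The replicate block gives the same log2 changes as leaving out WT replicate 1, which is alone in its block. With sex as a covariate Inpp5d was no longer called (0.40), and without KO replicate 2 Inppl1 was called (0.45); Inpp5e, Synj1, Phlpp1 and Phlpp2 kept direction and did not pass in any alternative that tested them. Filtering at 5 FPKM left the Phlpp genes untested. With 1 library left out, 4 to 5 members and 1623 to 2659 genes were called (1623 without WT replicate 2), the log2 change of Dnmt3a was -1.40 to -1.10, and the pair differences, KO minus WT, were 1.94 to 2.12 for Inpp4b and Inpp4a, 0.09 to 0.34 for Inpp5d and Inppl1 and -0.48 to -0.35 for Phlpp1 and Phlpp2. A fit that leaves 1 KO library assumes that it varies like WT. With sex as a covariate 1312 genes were called, of which 1230 were shared with the 2507. A replicate block called 2058 genes and the same 4 members; deviations of same-numbered libraries correlated at -0.03 and 0.10, and the labels do not say that a number pairs samples; both numbered pairs set a male KO library against a female WT library. Upper-quartile scaling made 52.5% of calls higher, against 41.2% as reported. Signs turned for Grb2 under scaling by upper quartiles (0.019), quantiles (0.014) and median ratios (0.0036), for Gsk3a under the upper-quartile (0.011) and quantile (0.037) ones, and for Pip5k1c and Plek under the replicate block (-0.0036 and -0.015) and with 1 library left out (-0.13 to 0.17 and -0.12 to 0.17). None of these passed the test, and the cause was not tested. The list of other phosphoinositide phosphatases had 1 to 4 called genes over the alternatives, against 4 as reported, and that of AKT substrates and targets 3 (sex as a covariate) to 9, with 5 under the replicate block, against 9. Unknown depth limits the lowest genes most, Phlpp1 and Phlpp2.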

Other observations

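The most abundant markers were read one by one. Cpa3 and Tpsb2, proteases of mast cell granules, rose by 1.39 and 1.30 on the log2 scale, with limma adjusted p values of 0.000850 and 0.000734. Lyz2, the lysozyme of monocytes, macrophages and neutrophils, fell by 1.89, while Ly6c2 of the same list did not pass (-0.04). Cd74 and H2-Aa, of MHC class II, fell, with log2 changes of -3.02 and -3.30, and S100a9 and S100a8, abundant in neutrophils, fell too (-0.82 and -0.86). The basophil proteases Mcpt8 (-0.22) and Prss34 (-0.06) and the eosinophil genes Prg2 (0.40) and Ear6 (0.37) did not pass. Of the other markers in these lists, named after their values were seen, Cd200r3 (1.01), Gzmb (1.27) and Il4 (0.55) of basophils and Ccr3 (1.00) of eosinophils rose, and the basophil-list genes Ms4a3 (-1.93) and Il6ra (-1.52) fell. The share of tested markers called was 60% for erythroid cells and 66.7% each for megakaryocytes and for stroma and endothelium, beside 22.1% of all tested genes. Of 5 tested erythroid markers 3 fell, Hba-a1 by 0.84 and Klf1 by 0.67. Of 6 megakaryocyte markers 2 rose and 2 fell, with Itga2b higher by 0.57 and Pf4 lower (-1.11). Of 7 stromal and endothelial markers only 3 were tested, and the untested ones did not exceed 0.51 FPKM. Of the 3 tested markers 1 rose and 1 fell. Pecam1, also counted in the list of SHIP adaptors and receptors, rose by 0.59, and Pdgfrb did not pass (0.55). Cd79b, the only B cell marker tested, did not pass (-0.41). No T or NK cell marker reached 1 FPKM in the 2 libraries needed for testing, and their highest value was 1.08 FPKM.

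The promoter windows of all 9 genes differed widely in CpG content. RefSeq gave 14 windows for them, with 6 CpG pairs in the Inpp5d window and 42 in the Phlpp1 window at the extremes. The Synj1 windows held 30 and 36, the Inpp5e windows 17 and 25, the Inppl1 windows 12 and 35 and the Phlpp2 window 34. Only the exact strings GTAAACA, a form of the FOXO motif, and AGATAA, a form of the GATA motif, were searched, on both strands. These strings occurred in none of the 14 windows, against 3.65% and 11.2% of all 32851 windows. Other forms were not searched, and the Inpp5d window shown above holds TGATAA, which has the same GATA core.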
